A study of Mus musculus with 10 samples.

Results

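Skeletal muscle genes were followed through 10 subcutaneous B16-F10 tumors. The 36 genes were taken by symbol from a fixed list of sarcomere, calcium-handling and energy genes, and all 36 were found among the 17737 genes of the count table. B16-F10 is a mouse melanoma line. Its cells carried an introduced wild-type IL-18 in 5 tumors (WT tumors 2 to 6) and, in the other 5 (D69A tumors 1 to 5), an IL-18 whose aspartate at position 69 is alanine. Both kinds of cell were placed under the skin of the right flank of C57BL/6 mice, and every tumor was taken on day 11, so overexpression, strain, site and time are common to both groups. The labels do not say whether a line was 1 clone, how the gene was introduced, or whether each tumor came from its own mouse. P-values therefore measure the spread between these samples. No tumor without introduced IL-18 was analysed here, and Il18 itself stood between 25.2 and 33.0 CPM over the 10 tumors of both groups, so its level does not check the labels. Total counts lay between 25904345 and 37578722 per tumor, so that 3 counts, taken as a floor, corresponded to 0.0775 to 0.115 CPM (counts per fixed number of library counts, after scaling of the libraries). Floors and intervals from counts cover counting error only.

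Skeletal muscle contracts when myosin thick filaments pull on actin thin filaments within the sarcomere, and troponin on the thin filament admits this pull when calcium leaves the sarcoplasmic reticulum. Fast and slow fibers build the same machine from different paralogs of myosin, troponin and myosin light chain, whereas titin, nebulin and skeletal actin are shared. In the mouse a thin sheet of skeletal muscle, the panniculus carnosus, lies beneath the skin of the trunk, and body wall muscle lies deeper. Melanoma cells do not form sarcomeres. In a bulk tumor a low value can mean fewer muscle cells or less RNA per cell, and these cannot be told apart.

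The upstream sequences of 4 genes, picked after their levels and motif matches were seen, are shown because 3 of them (Myh4, Acta1 and Ckm) had levels that ran together across the tumors, while the fourth, Eno3, did not follow them. RefSeq promoters (GRCm38.p6) were matched for 28 of the 36 genes in 35 windows, and the 250 bases before the start were used. The windows are chr11:67237562-67237811 on the plus strand, chr8:123894776-123895025 on the minus strand, chr7:19410844-19411093 on the plus strand and chr11:70656926-70657175 on the plus strand. Capitals mark matches, on either strand, to the E-box CAGCTG, a loose MEF2 pattern (any bases between its fixed ends), the CArG box, the MCAT core CATTCC and TATAAA. The first 3 of these motifs read the same on both strands, and no marked matches overlap in the 4 windows.
Myh4: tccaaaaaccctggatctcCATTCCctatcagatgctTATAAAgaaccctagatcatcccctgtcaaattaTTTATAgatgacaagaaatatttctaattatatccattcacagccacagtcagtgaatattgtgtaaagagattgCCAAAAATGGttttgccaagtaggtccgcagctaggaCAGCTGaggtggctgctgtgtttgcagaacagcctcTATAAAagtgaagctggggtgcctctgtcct
Acta1: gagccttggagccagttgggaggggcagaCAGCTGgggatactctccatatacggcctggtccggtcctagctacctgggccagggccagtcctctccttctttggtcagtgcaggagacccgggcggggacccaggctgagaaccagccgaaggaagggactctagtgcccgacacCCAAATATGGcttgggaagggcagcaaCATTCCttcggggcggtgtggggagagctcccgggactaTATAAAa
Ckm: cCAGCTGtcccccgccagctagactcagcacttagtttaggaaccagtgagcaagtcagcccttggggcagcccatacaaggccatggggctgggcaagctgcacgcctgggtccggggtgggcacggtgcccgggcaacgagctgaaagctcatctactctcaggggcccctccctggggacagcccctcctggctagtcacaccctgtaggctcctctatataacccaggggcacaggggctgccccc
Eno3: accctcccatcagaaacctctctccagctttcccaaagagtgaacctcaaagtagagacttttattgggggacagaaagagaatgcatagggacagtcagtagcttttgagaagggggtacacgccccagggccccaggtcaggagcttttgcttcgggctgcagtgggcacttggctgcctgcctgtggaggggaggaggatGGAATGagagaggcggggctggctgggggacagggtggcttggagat
Counted back from the start, the Myh4 window held CATTCC at -231 to -226, TATAAA at -213 to -208, at -179 to -174 (opposite strand) and at -31 to -26, a CArG box at -104 to -95 and CAGCTG at -67 to -62. The Acta1 window held CAGCTG at -221 to -216, a CArG box at -73 to -64, CATTCC at -46 to -41 and TATAAA at -7 to -2. The Ckm window held CAGCTG at -249 to -244 and no other match. The Eno3 window held CATTCC on the opposite strand at -47 to -42 and none of the other motifs. CAGCTG was present in 42.9% of the 35 windows of the muscle genes and in 13.0% of all 32851 windows. CATTCC was present in 28.6% against 12.6%, the CArG box in 14.3% against 1.47%, the loose MEF2 pattern, which takes in more than MEF2 sites, in 8.57% against 3.20%, and TATAAA in 17.1% against 12.4%. These are matches of letters and not measured binding.

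Transcripts of fast skeletal muscle were abundant in 3 tumors and scarce in others of the same group. The summed level of the 14 fast-fiber genes was 1522 CPM in WT tumor 4, 991 in WT tumor 3 and 505 in D69A tumor 1. It was 98.2 CPM in WT tumor 2 and 91.9 in D69A tumor 4, then 31.5 in WT tumor 5, 10.3 in D69A tumor 2, 5.09 in WT tumor 6, 3.30 in D69A tumor 3 and 2.93 in D69A tumor 5. The highest of these was 519-fold above the lowest, from 57304 counts in WT tumor 4 and 108 in D69A tumor 5. Within WT tumors the range was 299-fold and within D69A tumors 172-fold, so each group held both muscle-rich and muscle-poor samples. All 36 genes together took 0.265% of the library in WT tumor 4, 0.181% in WT tumor 3 and 0.0954% in D69A tumor 1. Of the 36 genes, 30 had their highest value in WT tumor 4. In D69A tumor 3, 16 of the 36 had 0 counts, against 15 in D69A tumor 5, 11 in WT tumor 6 and at most 4 in any other tumor.

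**Figure D1:**
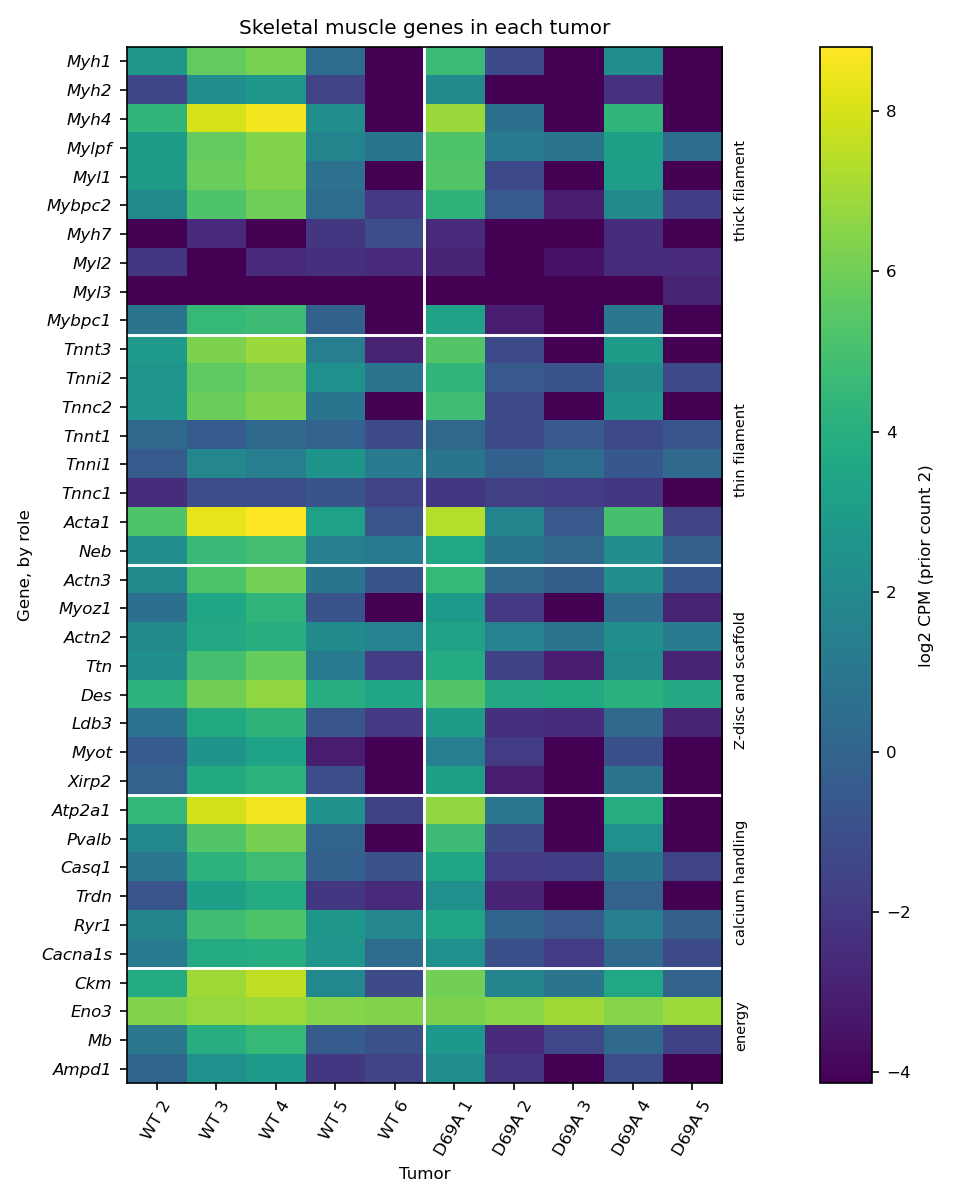
Level of the 36 genes (rows, grouped by role) in each of the 10 tumors (columns) as log2 CPM with a prior count of 2, where the darkest color is 0 counts. Most rows are brightest in WT tumors 3 and 4 and D69A tumor 1, while the row of Eno3 is even and those of Myh7, Myl2 and Myl3 are dark throughout.

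Among the thick filament genes, the fast myosin heavy chain Myh4 (type IIb; chromosome 11, 67238029 to 67260446 in mm10) showed the range most fully. In WT tumors 2 to 6 it stood at 20.6, 257, 383, 4.58 and 0 CPM. In D69A tumors 1 to 5 it stood at 117, 1.50, 0, 20.6 and 0 CPM. WT tumors 3 and 4 and D69A tumor 1 were high, WT tumor 2 and D69A tumor 4 were alike, and the groups overlapped. Its neighbor Myh1 (type IIx; 67200052 to 67224575) followed the same order, with 6.56, 51.8, 73.4, 1.31 and 0 CPM in WT tumors 2 to 6 and 25.9, 0.36, 0, 4.64 and 0 CPM in D69A tumors 1 to 5. Myh2 (type IIa) reached 6.37 CPM in WT tumor 4, 4.84 in WT tumor 3 and 3.96 in D69A tumor 1, and was at or below 0.31 CPM elsewhere. The fast light chains Mylpf and Myl1 peaked at 81.3 and 82.3 CPM, both in WT tumor 4, and the myosin-binding proteins Mybpc2 and Mybpc1 at 61.9 and 26.2 CPM in the same tumor. Mylpf did not fall to 0 in any tumor and was 1.36 CPM or higher throughout, whereas Myl1 had 0 counts in WT tumor 6 and D69A tumors 3 and 5.

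Fast chains made up most of the adult myosin heavy chain counts in the 7 tumors that had at least 50 of them. Of their counts in WT tumor 4 (17425), Myh4 took 82.8% (95% exact binomial interval 82.2 to 83.3), Myh1 15.9% (15.3 to 16.4) and Myh2 1.38% (1.21 to 1.56). In WT tumor 3 Myh4 took 81.9% (81.2 to 82.6), in D69A tumor 1 79.7% (78.6 to 80.7), in D69A tumor 4 80.7% (77.9 to 83.3) and in WT tumor 2 75.0% (72.3 to 77.6). Myh2 took a larger share in D69A tumor 1 (2.68%, 2.27 to 3.15) than in WT tumor 4 or WT tumor 3 (1.54%, 1.33 to 1.79), by intervals that did not overlap. The share did not follow the groups: it was 4.62% (2.33 to 8.12) in WT tumor 5 and 0.58% (0.189 to 1.35) in D69A tumor 4. The slow heavy chain Myh7 had 0 of 17425 counts in WT tumor 4, with an upper bound of 0.0212%, and 4 of 11473 in WT tumor 3. Its highest count was 11, in WT tumor 6, where the 3 fast heavy chains had none. Of the 50-base words in the transcripts, 18.9% for Myh4, 25.4% for Myh1 and 22.9% for Myh2 also occur in transcripts of other genes, mostly of each other and of Myh8, so the split between these paralogs depends on how shared reads were assigned. For Myh7 the figure is 15.6%, and Myh6 is its main partner.

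**Figure D2:**
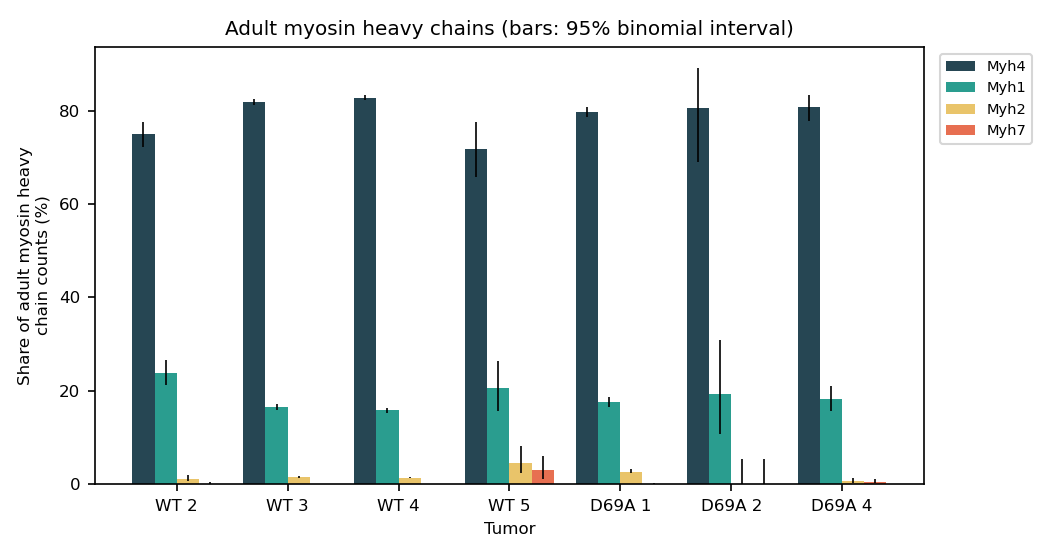
Share (%) of each adult myosin heavy chain in the counts of Myh4, Myh1, Myh2 and Myh7, for the 7 tumors with at least 50 such counts, a minimum set after the counts were seen; error bars are 95% exact binomial intervals. Myh4 takes between 71.8% and 82.8% in every tumor shown and Myh1 most of the rest.

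The thin filament repeated the pattern in its fast and shared genes. Skeletal actin, Acta1 (chromosome 8, 123891769 to 123894751), stood at 38.2, 318, 447, 9.42 and 0.57 CPM in WT tumors 2 to 6. In D69A tumors 1 to 5 it stood at 167, 3.20, 0.63, 32.9 and 0.30 CPM. Per kilobase of exon it had the highest mean level of the 36 genes (66.2 CPM per kb over the 10 tumors), followed by Eno3 (56.3), Tnnc2 (22.8) and Atp2a1 (22.2). The calcium-binding subunit of fast troponin, Tnnc2, was at 6.25, 59.0, 81.0, 1.82 and 0 CPM in WT tumors 2 to 6 and at 28.3, 0.36, 0, 5.74 and 0 CPM in D69A tumors 1 to 5. Of its exon sequence, 74.0% lies opposite exons of the cell cycle gene Ube2c, which stood between 66.9 and 118 CPM in all tumors. Tnnc2 nevertheless had 0 counts in 3 of these tumors. The inhibitory subunit gene Tnni2 and the tropomyosin-binding subunit gene Tnnt3 reached 68.0 and 116 CPM in WT tumor 4. Tnni2 stayed above 0 in every tumor, with a low of 0.35 CPM in D69A tumor 5. Neb, the nebulin gene that spans the thin filament, ranged from 0.81 CPM in D69A tumor 5 to 30.6 CPM in WT tumor 4.

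The slow troponin and light chain genes did not share the pattern. Tnni1, the slow inhibitory subunit (chromosome 1, 135779434 to 135810989), stood at 0.67, 3.61, 2.60, 5.81 and 2.26 CPM in WT tumors 2 to 6 and at 1.76, 0.84, 1.38, 0.62 and 1.17 CPM in D69A tumors 1 to 5. It was highest in WT tumor 5, which was poor in fast genes, and low in WT tumor 2. Tnnt1 lay between 0.36 and 1.14 CPM in all tumors and Tnnc1, which slow muscle shares with the heart, between 0 and 0.54 CPM. The ventricular and slow light chain gene Myl2 reached at most 0.18 CPM, and Myl3 had counts in 1 tumor only, D69A tumor 5, at 3. The summed level of the 6 slow genes was 2.12 to 7.58 CPM in WT and 1.39 to 3.21 CPM in D69A tumors. In the tumor richest in muscle transcripts, WT tumor 4, it was 4.28 CPM against 1522 CPM for the fast genes.

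Z-disc and scaffold genes were high in the same tumors, on different floors. Titin, Ttn, the elastic filament of the sarcomere, stood at 4.88, 31.5, 54.0, 2.12 and 0.23 CPM in WT tumors 2 to 6 and at 13.9, 0.28, 0.06, 4.05 and 0.08 CPM in D69A tumors 1 to 5. The fast-fiber actinin Actn3 peaked at 67.8 CPM and its shared relative Actn2 at 15.6 CPM in WT tumor 4. Actn2 remained at 1.71 CPM or more in all tumors. Des, which encodes the intermediate filament desmin of skeletal, heart and smooth muscle and of pericytes, stood at 19.0, 63.9, 99.0, 14.9 and 11.4 CPM in WT tumors 2 to 6. In D69A tumors 1 to 5 it stood at 39.3, 12.5, 12.9, 17.4 and 12.6 CPM. Thus Des had a level of 11.4 CPM or more even where Myh4 had 0 counts. Myoz1, Ldb3, Myot and Xirp2, all coding for proteins of the Z-disc or of its links to actin, peaked between 10.3 and 19.8 CPM, each in WT tumor 4.

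Of the 6 calcium-handling genes, 4 ran closely with Ckm (Pearson r of at least 0.9). They were Trdn and Atp2a1, Pvalb and Casq1, the last of which are themselves in the fast list. Ryr1 (0.81) and Cacna1s (0.79) did so less closely. Atp2a1, the calcium pump of the fast sarcoplasmic reticulum (chromosome 7, 126445858 to 126463108), stood at 21.3, 240, 384, 5.70 and 0.27 CPM in WT tumors 2 to 6. In D69A tumors 1 to 5 it stood at 104, 1.92, 0, 15.4 and 0 CPM. Of its exon sequence 21.9% lies opposite Rabep2, and Rabep2 varied little (20.7 to 28.4 CPM). The calcium buffer Pvalb, the store protein gene Casq1 and its anchor Trdn peaked at 69.8, 27.2 and 14.0 CPM in WT tumor 4. Ryr1, the release channel, stood at 3.41, 28.4, 38.4, 6.56 and 3.60 CPM in WT tumors 2 to 6 and at 11.3, 0.95, 0.63, 2.75 and 0.81 CPM in D69A tumors 1 to 5. Cacna1s, the voltage sensor that opens it, stood at 2.30, 13.6, 14.4, 6.00 and 1.26 CPM against 5.08, 0.45, 0.21, 1.21 and 0.38 CPM in the same order. Both were higher in WT tumor 5 than in WT tumor 2, although WT tumor 2 had more of every fast gene. Their counts were 0.205 and 0.0767 per count of Ckm in WT tumor 4, and 1.78 and 1.62 in WT tumor 5. In WT tumor 6, which had 10 counts of Ckm, they were 9.4 and 3.3. WT tumor 5 also had the highest summed leukocyte markers (2145 CPM, with 465 to 2086 elsewhere) and fibroblast markers (6248 CPM, with 380 to 5335 elsewhere). These sums were 1129 and 3297 CPM in WT tumor 6. In WT tumor 3 they were 2086 and 5335 CPM, beside ratios of 0.229 and 0.109. The part of these cells in the values of Ryr1 and Cacna1s was not tested.

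Of the energy genes, Ckm, the creatine kinase that rebuilds ATP in muscle (chromosome 7, 19404776 to 19422841), stood at 14.2, 124, 187, 3.69 and 0.38 CPM in WT tumors 2 to 6. In D69A tumors 1 to 5 it stood at 66.7, 3.26, 1.74, 12.5 and 0.92 CPM. Mb, which encodes the oxygen store myoglobin, and Ampd1, the AMP deaminase of muscle, peaked at 23.2 and 7.17 CPM in WT tumor 4. Eno3, the muscle enolase of glycolysis (chromosome 11, 70657202 to 70662513), behaved otherwise. It stood at 82.0, 110, 119, 88.2 and 81.4 CPM in WT tumors 2 to 6 and at 75.6, 90.1, 126, 88.5 and 118 CPM in D69A tumors 1 to 5. It was highest in D69A tumor 3, where Myh4, Myh1 and Myl1 had 0 counts, and lowest in D69A tumor 1, which was rich in them.

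Proportions to Ckm were even for some fast and shared genes and uneven for others. Over WT tumors 2, 3 and 4 and D69A tumors 1 and 4, the ratio of counts to Ckm varied by no more than 2-fold for 20 of 29 tested fast and shared genes and by more for 9. These 5 tumors had the highest levels of Ckm, and the count holds for them only. In WT tumor 5, left out with 138 counts of Ckm, the ratios of Tnni2 (1.35), Mylpf (0.87) and Ryr1 (1.78) were above their ranges in the 5. Those of Acta1 (2.55) and Myl1 (0.442) in WT tumor 5 lay within theirs. Acta1 had 2.70, 2.57 and 2.39 counts per count of Ckm in WT tumors 2, 3 and 4, and 2.50 and 2.64 in D69A tumors 1 and 4. Tnnc2 had between 0.425 and 0.476 and Tnnt3 between 0.515 and 0.617 in these 5 tumors. Atp2a1 was less even, at 1.50, 1.94 and 2.05 against 1.56 and 1.24. The widest ranges were those of Eno3 (0.637 to 7.10), Myh2 (0.0119 to 0.0593), Actn2 (0.0831 to 0.394), Des (0.516 to 1.39) and Neb (0.163 to 0.373). In D69A tumor 2 the ratios went both ways. Those of Acta1 (0.983) and Tnnc2 (0.111) were below their ranges in these 5 tumors. Those of Des (3.84), Actn2 (0.897) and Neb (0.547) were above theirs, and those of Mylpf (0.658) and Actn3 (0.35) lay within. Myh1, Tnnt3 and Myl1 had the same ratio as Tnnc2, each from 13 counts against 117 of Ckm. Ckm kept 58 and 34 counts in D69A tumors 3 and 5, where Myh1, Tnnt3, Tnnc2 and Myl1 had 0. Of Ckm exon sequence 15.5% lies opposite A930016O22Rik, whose part in the low Ckm counts was not tested.

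Ckm was used as the anchor for co-variation, on log2 CPM over the 10 tumors. Of the 31 other muscle genes that passed the filter on low counts, 25 had a Pearson r of at least 0.9, against 0.442% of 13797 tested genes. That limit was set after the levels were seen, and at 0.95 the count was 15 of the 31, against 0.225%. Acta1 had r = 0.97 (permutation p = 2e-05) and Spearman rho = 0.99 (permutation p = 1e-05), two-sided, over the 10 tumors. Myh4 had r = 0.96 (permutation p = 3e-05) and rho = 0.99 (permutation p = 1e-05), the last being the smallest p that 100000 permutations give. The 6 tested genes below 0.9 were Ampd1 (r = 0.90, unrounded just below the limit), Ryr1 (0.81), Cacna1s (0.79), Tnnt1 (0.59), Tnni1 (0.18) and Eno3 (0.05). Spearman's rho for the last 3 was 0.65, 0.22 and 0.02, with permutation p of 0.051, 0.54 and 0.97. In all 35 relations were computed, and adjustment was made over all genes: in limma's test of the slope on Ckm, 26 of the 31 rose with Ckm at an adjusted p under 0.05, against 0.486% of tested genes. With group in that fit 28 did, against 0.565%. On deviations from the group means the median r of the 31 was 0.96, against 0.95 over the tumors as they stand. Without the 2 tumors farthest from the median of Ckm, WT tumors 3 and 4, the median r was 0.91 and 16 of the 31 were at 0.9 or above. The genes of a tumor share its library and depth, so these relations describe samples and not the control of the genes.

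**Figure D3:**
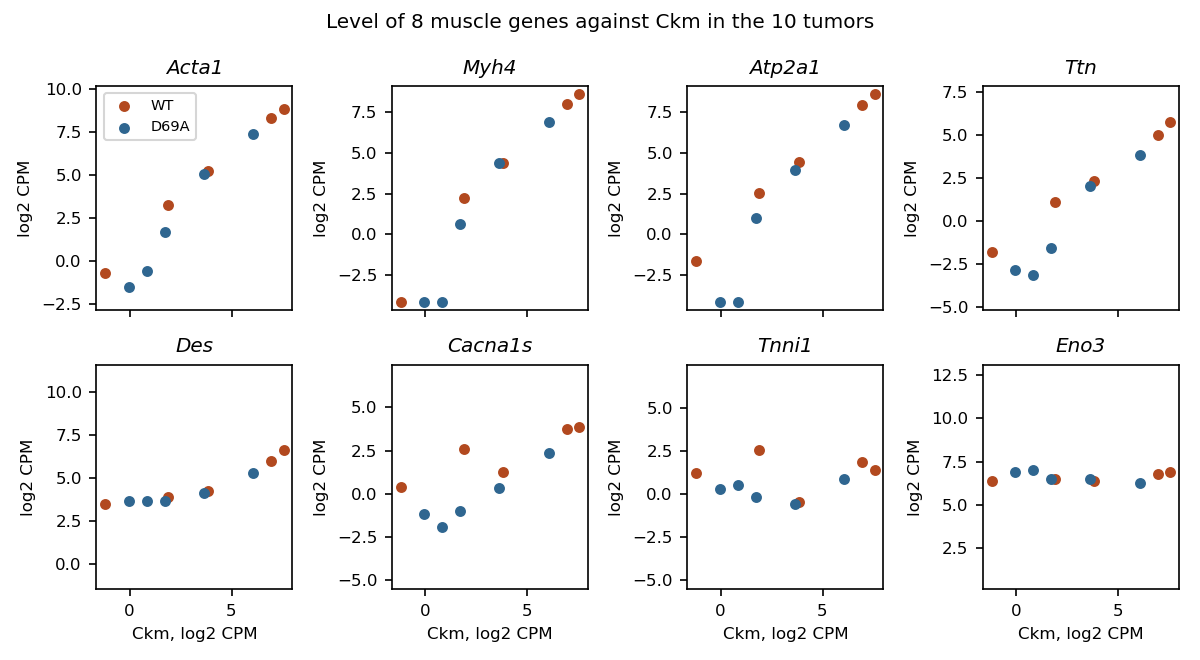
Level of 8 muscle genes, picked after their levels were seen (y axes, log2 CPM, each spanning at least 13 units) against Ckm (x axes, log2 CPM) in WT (orange) and D69A (blue) tumors, 1 point per tumor. Acta1, Myh4, Atp2a1 and Ttn rise along the Ckm axis, Des rises only at its upper end, Cacna1s departs in WT tumors 5 and 6, and Tnni1 and Eno3 show no rise.

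Genes outside the list that ran most closely with Ckm were in large part other muscle genes. By r over the 10 tumors the first 15 were Hfe2 (hemojuvelin, 0.99), Apobec2 (0.99), Tmod4, Mylk2, Sypl2, Eef1a2, Smpx, Mylk4, Jph2, Sbk2, Ppp1r3a, Myo18b, Trim54, Trim72 and Mypn (0.95). Hfe2 stood at 0.70, 6.56, 8.42, 0.16 and 0 CPM in WT tumors 2 to 6 and at 3.42, 0.11, 0, 0.65 and 0 CPM in D69A tumors 1 to 5. Of the 36 genes outside the list with r of at least 0.9, 20 belonged to a list of 46 other muscle genes, of which 37 were tested. In that list Trim63, a ubiquitin ligase gene known from muscle atrophy, had the lowest r (-0.47) and had mean levels of 41.5 ± 5.23 CPM among WT samples and 56.2 ± 8.59 CPM among D69A samples (SD over 5 tumors).

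Genes of muscle formation other than Pax3 were low. Their list held regulators along with developmental sarcomere, receptor and cell adhesion genes. Of the 16 listed, 15 were analysed here and 4 passed the filter. Myod1 reached at most 0.08 CPM, Pax7 0.22 CPM and Myog 0.66 CPM, and Myf6, the factor kept in adult fibers, 1.91 CPM. The developmental heavy chains Myh3 and Myh8 reached 0.42 and 1.56 CPM. Myog and Myh8 had counts only in WT tumors 3 and 4 and D69A tumor 1. Myf6 stood at 1.04, 1.91 and 0.48 CPM in those tumors and at most 0.10 CPM elsewhere. Myh3 differed, with counts in WT tumors 2 to 5 only. Pax3, which also marks the melanocyte lineage, was the exception with at least 112 CPM in every tumor. Of the 4 tested genes of muscle formation, Myl4 and Mymk were lower in D69A tumors (edgeR adjusted p = 0.0298 and 0.0385). Among all tested genes 24.7% were lower, and Mymk had at most 29 counts in any tumor. Of the 10 cardiac markers, 3 were tested. The natriuretic peptide gene Nppb stood between 19.6 and 55.0 CPM in all tumors, Tnnt2 reached 2.22 CPM and Tnni3, cardiac troponin I, reached 1.64 CPM. Tnni3 was lower in D69A tumors (log2 fold change -2.72, edgeR adjusted p = 0.00103). The other 7, Myh6 (at most 0.45 CPM), the atrial light chain gene Myl7 (0.23) and cardiac actin Actc1 (1.33) among them, were too low to test.

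Markers of other tissues and cell types matched the muscle genes in part. WT tumor 5 had 31.5 CPM of fast muscle transcripts and the highest summed adipocyte level (87.7 CPM over 10 genes), and WT tumors 3 and 4 were high in both (80.3 and 75.8 CPM of adipocyte markers). Among D69A tumors, the muscle-rich D69A tumor 1 had the highest sums of several lists and the lowest of others. Its adipocyte sum was 26.3 CPM (17.8 to 21.6 in the other D69A tumors), mostly from Fabp4 (14.3 CPM) and Lipe (10.6 CPM). The tumor had 0 counts of Adipoq, an adipocyte hormone gene, and of Plin1, Cidec, Cidea, Lep and Retn. Its fibroblast sum was 1416 CPM (380 to 904 in the others), its leukocyte sum 692 (465 to 523) and its smooth muscle sum 94.6 (66.1 to 69.3). Its endothelial sum was 185 CPM (134 to 163) and its tendon sum 14.5 CPM (9.07 to 12). Its melanocyte sum was the lowest of the D69A tumors, at 23503 CPM (25292 to 30089 in the others). So were its keratinocyte (2.59 CPM) and cardiac (21.4 CPM) sums. The part of these tissues in the muscle values was not tested. Schwann cell markers came to 44.3 CPM in WT tumor 5, 22.6 to 25.9 in the other WT tumors and 13.5 to 17.3 in D69A tumors. Keratinocyte markers were low throughout, with 5.06 to 7.44 CPM summed over 11 genes in WT and 2.59 to 3.48 CPM in D69A tumors, and Krt5 had counts in 1 tumor at 0.08 CPM. None of the tested smooth muscle (8), adipocyte (5), keratinocyte (5), Schwann (7), tendon (4), fibroblast (10), endothelial (6), leukocyte (7) or melanocyte (7) markers reached r = 0.9 with Ckm. The highest was the tendon gene Thbs4 (0.68).

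**Figure D4:**
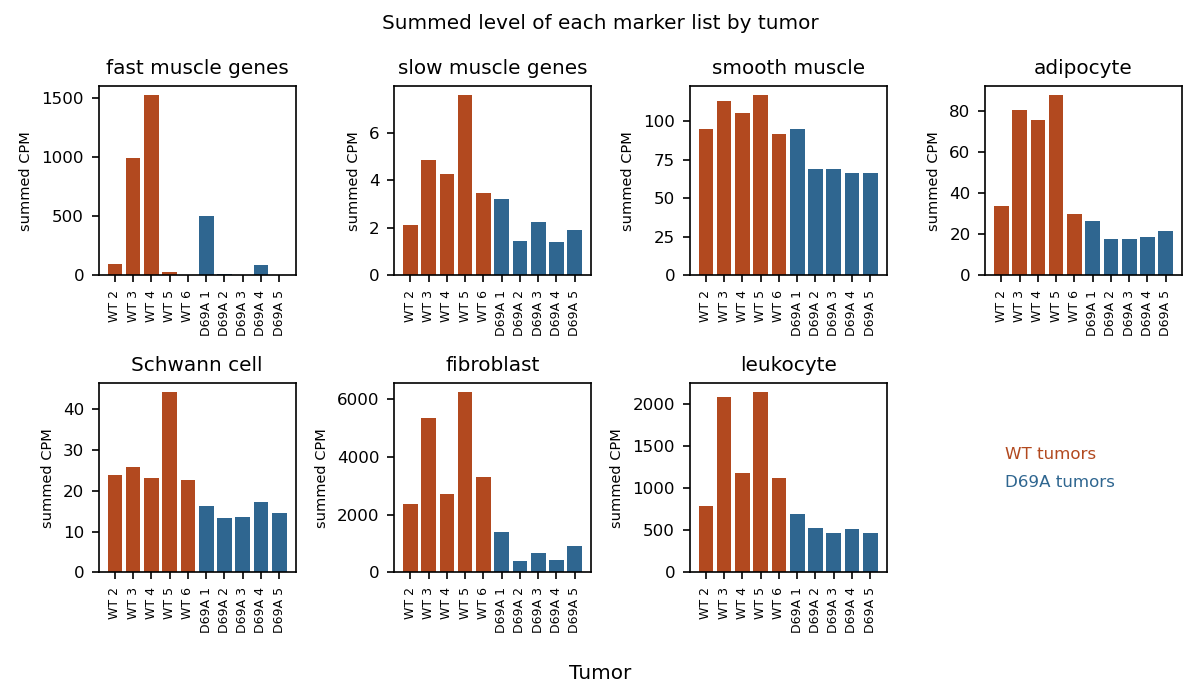
Summed CPM of marker lists in each tumor (bars from 0, WT orange, D69A blue; each panel has its own scale). Fast muscle genes stand out in WT tumors 3 and 4 and D69A tumor 1, whereas adipocyte, Schwann cell, fibroblast and leukocyte sums are highest in WT tumor 5 and lower in every D69A tumor than in every WT tumor.

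Whether muscle transcripts differed with the form of IL-18 was tested between the groups. All 14 fast genes had lower means in D69A tumors, and none passed the test. Of the 36 genes, 32 passed the filter on low counts, and Myh7, Tnnc1, Myl2 and Myl3 did not. Of these 32, 1 was lower and 0 higher in D69A tumors in edgeR's quasi-likelihood test (adjusted p under 0.05 over 13798 genes), while 43.5% of all tested genes passed, 24.7% lower and 18.8% higher. At an unadjusted p under 0.05 there were 3 of the 32. The median log2 fold change was -1.95 over the 32 genes and 0.00 over all tested genes. A negative value was found for 31 of the 32, against 49.7% of all tested genes. Levels of the 32 ran together over the tumors (median pairwise r 0.95), so they are not 32 separate observations. The gene that passed was the slow troponin Tnni1, with 2.99 ± 1.90 CPM across WT samples and 1.15 ± 0.45 CPM across D69A samples (SD over 5 tumors). It fell by 1.37 on the log2 scale (SE 0.49, edgeR adjusted p = 0.0406). No muscle gene had groups that did not overlap, against 29.4% of all tested genes.

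The SE was below the size of the log2 fold change for 13 of 14 fast and 15 of 16 shared genes, but in no case did the difference pass the threshold. Mean Myh4 was 133 ± 177 CPM for WT and 27.9 ± 50.8 CPM for D69A (SD over 5 tumors), with a log2 fold change of -2.25 and an SE of 1.74 (edgeR adjusted p = 0.318). For Acta1 the values were 163 ± 206 and 40.7 ± 71.7 CPM, a 3.99-fold lower fitted level with an SE of 1.61 on the log2 scale (edgeR adjusted p = 0.339). Ckm stood at 65.9 ± 85.0 against 17.0 ± 28.1 CPM (edgeR adjusted p = 0.282). Cacna1s (log2 fold change -2.35, SE 0.92, edgeR adjusted p = 0.058) and Ryr1 (-2.28, SE 0.96, edgeR adjusted p = 0.0753) came nearest to the threshold after Tnni1. Eno3 was level, at 96.1 ± 17.4 against 99.8 ± 21.6 CPM (log2 fold change 0.05, SE 0.16, edgeR adjusted p = 0.81). With SEs of this size, differences of several fold in fast muscle transcripts did not pass the threshold between groups of 5. What size of difference could be detected was not tested.

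**Figure D5:**
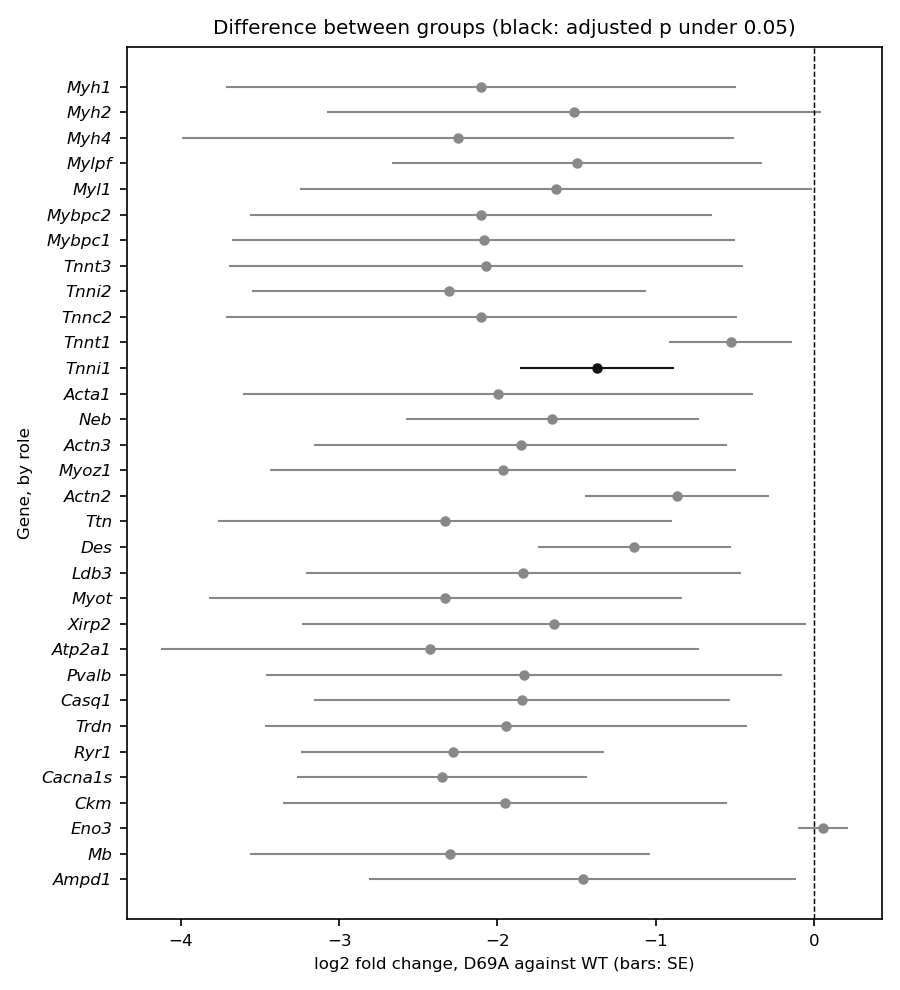
Log2 fold change of D69A against WT (x axis, points) with its SE (bars) for the 32 tested muscle genes, ordered by role; black marks an adjusted p under 0.05. Tnni1 alone is black, the fast and shared genes other than Eno3 lie below 0 with wide SEs, and Eno3 lies near 0.

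These counts turned on single tumors. Without D69A tumor 1, 11 of 33 tested muscle genes were lower, among them Myh2, Tnni2, Actn3, Casq1, Neb, Mb and Ldb3. The median log2 fold change was -4.04, and 46.2% of all tested genes passed in either direction. Without WT tumor 2 or WT tumor 6 the count was 2 (Tnni1 and Cacna1s), where 45.8% and 43.2% of all tested genes passed in either direction. Without any 1 of the other 7 tumors it was 0, where 35.9% to 41.6% passed. Without WT tumor 4 the median was -1.06. Over the 8 tumors numbered 2 to 5, which leave out both D69A tumor 1 and WT tumor 6, 29 of 32 were lower where 46% of all tested genes passed in either direction, a choice of samples made after the data were seen. Without the 3 tumors highest in muscle genes (WT tumors 3 and 4 and D69A tumor 1), Ryr1 and Cacna1s were lower and no fast gene was. The median was -0.77 over 29 tested genes, and 31.4% of all tested genes passed in either direction. These 3 tumors were left out by the same muscle values that were then compared. In 7 of 10 leave-one-out fits Tnni1 was no longer called, with log2 fold changes between -1.41 and -0.94 and edgeR adjusted p of 0.0585 to 0.113.

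Among the other muscle genes, 3 of 37 tested were lower and 2 higher in D69A tumors (edgeR adjusted p under 0.05), and the median over the 37 was -1.86 (log2). Of all tested genes, 24.7% were lower and 18.8% higher, against which these and the next counts are to be read. The lower ones were Cacnb1, a subunit of the Cacna1s channel (-1.51), the muscle cytochrome oxidase subunit gene Cox6a2 (-2.10) and Xirp1 (-2.27). Of the higher ones, Trim63 (0.44) had at least 36.1 CPM in every tumor. Of the 8 tested smooth muscle markers 6 were lower, Acta2 among them (-1.38), with summed levels of 91.8 to 117 CPM in WT and 66.1 to 94.6 CPM in D69A tumors. All 5 tested adipocyte markers and all 10 fibroblast markers were lower, with medians of -2.71 and -2.45. Whether these tissues bear on the level of Des, Ryr1, Cacna1s or Tnni1 was not tested.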

How the data were processed

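Bulk RNA was sequenced from 10 tumors, 5 per group. The table the authors deposited holds whole-number read counts per Ensembl gene, without scaling. Fastp, HISAT, Bowtie, RSEM and the build mm10 are named in the submitters' processing notes. How and in what version each was run, which annotation served and whether strand was used is not given in the sources used here. Estimated counts, such as RSEM makes, can divide the reads of paralogs between them. Columns were matched to tumors by name. Symbols were matched for 17670 of 17737 identifiers. Positions, exon lengths and transcripts came from GENCODE mouse release 21 on mm10, and promoters from RefSeq (GRCm38.p6).

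Genes passing filterByExpr (by group) entered a quasi-likelihood fit of all 10 tumors in edgeR 4.0.16 (R 4.3.3) after TMM scaling, and p-values were adjusted by Benjamini-Hochberg over 13798 genes, with 0.05 as the threshold. SEs were derived from the F statistic. Co-variation used log2 CPM (prior count 2) and limma 3.58.1. Its adjustment was over all genes and not, as first designed, over the listed genes. DESeq2 1.42.0, limma-voom, other scalings, robust estimation, no filter, a replicate block and leaving out tumors made up the 19 alternatives fitted. The slope fit and the fit on tumors 2 to 5 without a block were added after the data were seen. The muscle genes, the marker lists and the 3 tumors left out together were chosen with earlier results of these data known. Named genes outside the muscle list were the 15 tested genes with the highest r with Ckm and members of the marker lists. Ube2c, Rabep2 and A930016O22Rik were named for their overlap. Same-group libraries all differed by more than sampling noise (smallest chi-square per degree of freedom 13.9). The edgeR and slope tests were checked on simulated data. The simulated counts varied far less between tumors than the muscle genes did, so this check does not cover those genes. The slope simulation was altered after a first version missed its recovery limit, for a reason not tested. The values of 1 gene of the marker lists are not reported here.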

Additional observations from a re-analysis of the deposited data

Results flagged for a closer look

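For each of the 36 genes the 5 tumors of either group were searched for a value standing apart, by the gap to its neighbor as a share of the full range (Dixon's limit 0.71). The outcome depends on the scale, and log2 CPM was taken after values on both scales had been seen. On log2 CPM 4 of 72 groups (5.56%) passed the limit, where chance gives about 1 in 20. On plain CPM, the scale of the levels printed above, 28 of 72 (38.9%) passed. Of those 28, 27 singled out D69A tumor 1 as high and 1 singled out D69A tumor 5. On log2 CPM, Des was high in D69A tumor 1 (5.30). Tnnc1 was low in D69A tumor 5 (-4.14, 0 counts), Myl2 was low in WT tumor 3 (-4.14, 0 counts), and Myl3 was above the rest in D69A tumor 5 (-2.86, 3 counts). The last 3 genes had too few counts to be tested.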

How the results depend on the processing

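The count of muscle genes lower in D69A tumors was 1 as reported, 3 with DESeq2 (Tnni1, Ryr1 and Cacna1s) and 0 with limma-voom, where 1 had an unadjusted p under 0.05. With 1 tumor left out it ranged from 0 to 11, and it was 2 without the 3 tumors highest in muscle genes. No muscle gene was higher under any alternative run. RLE scaling, library size only, robust estimation and no low count filter each left the count at 1. The share of all genes past the threshold ranged from 31.4% to 46.9% over all alternatives. The number of muscle genes with r of at least 0.9 with Ckm went from 25 to 16 without the 2 tumors farthest from the median of Ckm. Summed muscle levels per tumor moved by less than the spread of their group with either other scaling. The replicate number as a block, over the 8 tumors numbered 2 to 5, gave 29 lower genes, against 29 in the same tumors without the block, with 27 genes in common. Same-numbered tumors did not deviate together throughout (correlations of 0.18, -0.42, 0.20 and 0.17 for numbers 2 to 5), so the numbers were not taken as pairs. Of the slow genes, 4 had too few counts to be tested.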
